A study of Mus musculus with 21 samples.

Results

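Embryoid bodies lacking Cxxc5, the gene also called Rinf, were compared with wild type embryoid bodies at day 6, the last of the 3 collection days. The comparison held 12436 genes of the 24458 in the deposited table, those whose mean over the 4 day 6 libraries was at least 1 FPKM (FPKM counts the fragments of a gene per kilobase of its transcript, relative to how many were mapped in that library). At this limit, 9330182L06Rik lay just inside with a mean of 1 FPKM and Gapdhs just outside with 0.998 FPKM. The study profiled 21 samples, of which 12 were embryoid body RNA libraries and 4 of those were from day 6. The knockout group consisted of 2 libraries (KO 1 and KO 2) and the wild type group of 2 libraries (WT 1 and WT 2). Each library of a genotype came from an independent embryonic stem cell line, at passages 15 to 18 and of mixed 129/C57BL/6 strain, aggregated in hanging drops. The sources used here do not give which stretch of Cxxc5 was removed, or whether each line is a single clone. Differences between replicates therefore include those between lines as well as between cultures. The same lines were collected on each day, and the test described below took the 12 libraries as independent, with no term for line.

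The CXXC zinc finger of CXXC5 belongs to a class that recognises CpG dinucleotides free of methylation, which cluster at many promoters. Embryoid bodies are aggregates in which embryonic stem cells lose pluripotency and form derivatives of the germ layers. In this setting BMP and Wnt signals are known to promote mesoderm and trophoblast-like fates and to oppose neural ones. RNA was measured in bulk, so that a smaller share of cells of a type and less RNA per cell cannot be told apart.

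The 4 day 6 libraries had similar estimated depths of 28.8 to 30.8 M reads, at which 1 FPKM in a transcript of 2 kb stands for 51.9 to 55.5 reads. The replicates of a genotype were farther apart at day 6 than before. Between KO 2 and KO 1, 668 genes (5.37% of those tested) differed by 1.5-fold or more, and between WT 2 and WT 1 1114 genes (8.96%), against 114 to 178 genes between replicates at days 0 and 3. The largest distance was between KO 2 and WT 1, with 3167 genes (25.5%), whereas KO 1 and WT 2 differed in 1020 genes (8.2%), fewer than the wild type cultures from one another. The 4 libraries were thus ordered WT 1, WT 2, KO 1, KO 2 by distance from WT 1. Because of this spread, the test gave each genotype and day its own variance (limma on log2(FPKM + 1) over the 12 embryoid body libraries, Benjamini-Hochberg adjustment over all genes tested, threshold 0.05). For a single gene, permuting 2 against 2 libraries exactly (two-sided) gives a p of 0.333 at the smallest.

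Cxxc5 itself (chromosome 18, 35829379 to 35861693, mm10) measured 9.38 FPKM in KO 1 and 11.9 FPKM in KO 2, against 39.8 FPKM in WT 1 and 52.2 FPKM in WT 2. Both knockout libraries lay far below both wild type libraries, and the transcript remained detectable, in a value that covers the whole gene and does not show which part remained. The log2 fold change was -2.01 (SE 0.335, limma adjusted p = 0.00766). Without KO 1 the limma adjusted p was 0.0702 and without KO 2 it was 0.103, the highest of 15 alternatives (lowest 3.71e-04). Psd2, on the same chromosome (35963872 to 36014715) and encoding an exchange factor for a small GTPase, measured 4.56 FPKM in KO 1 and 5.15 FPKM in KO 2, against 0.208 FPKM in WT 1 and 0.348 FPKM in WT 2. It rose by 2.20 on the log2(FPKM + 1) scale (SE 0.172, limma adjusted p = 2.86e-04). On this scale, used for all log2 fold changes given, the fold of a gene this low comes out too small. The knockout libraries of Psd2 were also above the wild type libraries at day 0, at 0.72 and 0.785 FPKM in KO against 0.125 and 0.115 FPKM in WT.

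Across the transcriptome, 1975 genes (15.9%) passed the threshold, of which 892 (7.17%) were higher and 1083 (8.71%) lower in the knockout. The change was at least 2-fold for 174 of the higher and 173 of the lower genes, and the median over all genes tested was 0.034 on the log2 scale. In 7991 genes (64.3%) both knockout libraries lay on the same side of both wild type libraries, above them in 35.4% of the genes tested and below them in 28.8%. In 3682 genes (29.6%) the gap between genotypes was also larger than the distance between the replicates of either genotype, and 1529 of the called genes were among these. A fit on the 4 day 6 libraries alone called 115 genes (0.925%), 20 higher and 95 lower, of which 97 were also called in the fit on 12 libraries. The count depended on single libraries, with 629 calls without KO 1, 114 without KO 2, 404 without WT 1 and 2283 without WT 2. In all 4 of these fits 105 of the 1975 calls (5.32%) passed in the same direction, 21 higher and 84 lower. Where a genotype was left with 1 library, that library was taken to vary like the other day 6 libraries.

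The direction of the difference moved with the base composition of the transcript. Called genes that rose had a median GC content of 56.1% and those that fell 42.9%, against 51% over all genes tested. With the genes tested divided into 5 groups of equal size by GC, the median log2 difference between KO and WT was -0.268 in the lowest group, with 29.9% of the genes lower and 0.89% higher. In the group highest in GC it was 0.256, with 1.21% lower and 17.3% higher. The same medians ran from -0.003 to 0.014 between WT 2 and WT 1, and from -0.005 to 0.069 between KO 2 and KO 1. With trends on GC content and length removed from every library, 469 genes passed (3.77%), 194 higher and 275 lower, and 390 of them were among the 1975. The part of this trend in any single result was not tested, and which of the calls described below ended under its removal is given beside them.

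**Figure D1:**
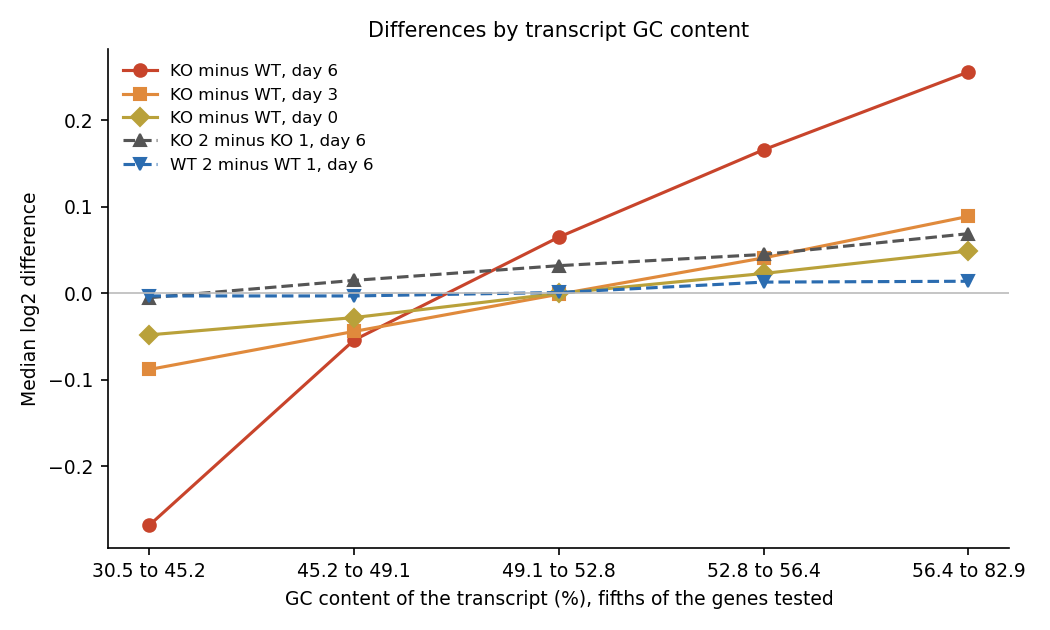
Median log2 difference (y axis) in 5 equal groups of the tested genes by transcript GC content (x axis, percent), for KO minus WT at days 6, 3 and 0 and for replicate against replicate at day 6. The day 6 difference between genotypes spans -0.268 to 0.256, wider than at day 3 (-0.088 to 0.089) and day 0 (-0.048 to 0.049), and the replicate lines stay within -0.005 and 0.069.

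Several genes known from the placenta rose with well separated libraries. Tpbpa, which marks the spongiotrophoblast layer of the mouse placenta (chromosome 13, 60938492 to 60941936), measured 5.32 FPKM in KO 1 and 4.46 FPKM in KO 2, against 0.355 FPKM in WT 1 and 0.0284 FPKM in WT 2. Prl7d1, a placental hormone of the prolactin family (chromosome 13, 27708998 to 27716737), measured 4.06 and 4.40 FPKM in the knockout libraries, against 0.261 FPKM in WT 1 and a listed 0 in WT 2. Ceacam9, an adhesion molecule of trophoblast (chromosome 7, 16721929 to 16726110), measured 8.46 and 6.69 FPKM in KO, against 0.916 and 0.0568 FPKM in WT. In each of these genes the lower knockout library was above the higher wild type library, and WT 2 was the lowest. Tpbpa rose by 2.32 (limma adjusted p = 2.92e-04), Prl7d1 by 2.22 (2.86e-04) and Ceacam9 by 2.58 (8.78e-04) on the log2(FPKM + 1) scale, where the fold of genes this low comes out too small. Tpbpa and Prl7d1 were listed at 0 in all 8 libraries of days 0 and 3, which add no spread to their test. With the day 6 libraries alone the limma adjusted p was 0.0477 for both and 0.0622 for Ceacam9. Over the 14 alternatives it ranged between 5.75e-05 and 0.0588 for Tpbpa, between 2.04e-05 and 0.0477 for Prl7d1 and between 8.5e-05 and 0.135 for Ceacam9, and all 3 calls passed with any 1 library left out.

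The promoters of these genes are shown because CpG is the target of the CXXC domain. They run from 250 bases before to 50 after the start in RefSeq (build GRCm38.p6, the sequence of mm10), with each CpG in capitals. Tpbpa lies at chr13:60941887-60942186 on the minus strand and Ceacam9 at chr7:16721679-16721978 on the plus strand, each with 2 CpG. Sct, a gene that rose and is described below, lies at chr7:141279084-141279383 on the minus strand and has 24 CpG. Tmem47, a gene that fell, lies at chrX:81070394-81070693 on the plus strand and has 29 CpG.
Tpbpa: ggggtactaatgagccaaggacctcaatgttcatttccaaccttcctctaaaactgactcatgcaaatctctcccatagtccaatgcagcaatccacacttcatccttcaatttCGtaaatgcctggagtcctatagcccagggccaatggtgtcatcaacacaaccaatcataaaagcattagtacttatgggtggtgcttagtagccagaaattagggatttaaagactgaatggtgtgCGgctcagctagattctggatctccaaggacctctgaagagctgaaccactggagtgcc
Ceacam9: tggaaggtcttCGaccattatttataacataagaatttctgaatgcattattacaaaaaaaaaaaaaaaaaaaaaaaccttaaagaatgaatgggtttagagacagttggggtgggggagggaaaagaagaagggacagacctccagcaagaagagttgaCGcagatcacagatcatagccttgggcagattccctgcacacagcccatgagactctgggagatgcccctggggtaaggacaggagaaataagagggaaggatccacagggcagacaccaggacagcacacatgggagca
Sct: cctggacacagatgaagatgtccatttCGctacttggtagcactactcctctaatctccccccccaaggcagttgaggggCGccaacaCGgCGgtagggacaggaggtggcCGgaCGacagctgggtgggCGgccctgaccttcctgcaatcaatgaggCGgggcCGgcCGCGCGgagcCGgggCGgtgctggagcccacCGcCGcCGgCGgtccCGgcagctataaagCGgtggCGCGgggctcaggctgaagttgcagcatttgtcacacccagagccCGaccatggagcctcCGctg
Tmem47: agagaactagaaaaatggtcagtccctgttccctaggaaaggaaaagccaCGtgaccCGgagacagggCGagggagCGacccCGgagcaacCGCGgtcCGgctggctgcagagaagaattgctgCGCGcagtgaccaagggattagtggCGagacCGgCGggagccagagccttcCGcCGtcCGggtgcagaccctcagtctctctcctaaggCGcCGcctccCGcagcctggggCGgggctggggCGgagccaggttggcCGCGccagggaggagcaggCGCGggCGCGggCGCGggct
The letters CG, which read the same on both strands, occur at least once in 94.6% of the 32851 promoters in the table, and 23.3% have 2 or fewer. Well separated genes that rose and genes that fell therefore both include promoters with many CpG. Called genes differed little in this respect, with a median of 22 CpG per promoter among those that rose, 22 among those that fell and 21 among all genes tested.

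The placental families around Tpbpa, Prl7d1 and Ceacam9 were examined after their values had been seen, and most of their members lay under the minimum of 1 FPKM. Over all genes tested, both knockout libraries were above both wild type libraries in 35.4% and below them in 28.8%. These shares were not computed for genes under the minimum. Of 26 prolactin family genes, which encode hormones of the placenta and pituitary, both knockout libraries were above both wild type libraries in 12 and below them in 0, and 8 were listed at 0 in all 4 libraries. Their summed level was 15.2 FPKM in KO 1 and 13.5 FPKM in KO 2, against 0.876 FPKM in WT 1 and 0.103 FPKM in WT 2, and no library of days 0 and 3 exceeded 0.310 FPKM. Of 8 cathepsins expressed in placenta, 5 were higher in both knockout libraries, and their sum was 4.94 and 4.03 FPKM in KO against 0.19 and 0.102 FPKM in WT. Both sums were several times higher in each knockout library, and WT 2 was the lowest library in both.

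The 6 genes from Serpinb9b to Serpinb9g, relatives of a granzyme inhibitor, were all higher in both knockout libraries, with sums of 13.7 and 10.4 FPKM in KO against 2.41 and 1.75 FPKM in WT. The 15 Ceacam genes, Ceacam9 included, summed to 13.7 and 11.6 FPKM in KO against 2.69 and 2.82 FPKM in WT, with 6 higher and 2 lower in both knockout libraries. Of 13 pregnancy-specific glycoproteins 5 were higher and 1 lower in both knockout libraries. Their sums lay closer together, at 12.8 and 12.3 FPKM in KO against 9.80 and 9.68 FPKM in WT. For the Ceacam genes and these glycoproteins, the share higher in both knockout libraries was near the 35.4% of all genes tested. Among the glycoproteins Psg29 measured 2.33 and 1.68 FPKM in KO against 0.152 and 0.0445 FPKM in WT, from an estimated 371 and 271 reads against 23 and 7 reads. Members of these families are close copies of one another, which makes the split of reads among them uncertain and the sums firmer than the single genes. Elf5, a transcription factor of trophoblast stem cells, was low in all 4 libraries and measured 0.18 and 0.177 FPKM in KO, against 0.0901 and 0.154 FPKM in WT.

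Other genes that rose with a clear gap belong to secreted, junctional and homeobox groups. Sct, which encodes the hormone secretin (chromosome 7, 141278329 to 141279174), measured 19.4 FPKM in KO 1 and 12.5 FPKM in KO 2, against 1.45 FPKM in WT 1 and 1.69 FPKM in WT 2. It rose by 2.69 on the log2 scale (SE 0.430, limma adjusted p = 0.00672). Gjb2, the gap junction protein connexin 26 (chromosome 14, 57098602 to 57104702), measured 5.97 and 7.24 FPKM in KO against 0.692 and 1.19 FPKM in WT, and rose by 1.98 (SE 0.216, limma adjusted p = 0.00152). Both stayed past the threshold with GC and length trends removed and with the day 6 libraries alone. Gjb2 also passed with any 1 library left out, whereas for Sct the limma adjusted p was 0.0642 without KO 1 and 0.0809 without KO 2.

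The homeobox genes Rhox9 and Rhox6, expressed in germ cells and placenta, measured 15.0 and 16.4 FPKM (Rhox9) and 11.7 and 11.7 FPKM (Rhox6) in KO, against 3.10 and 1.32 FPKM (Rhox9) and 2.66 and 0.351 FPKM (Rhox6) in WT. Rhox9 rose by 2.43 (limma adjusted p = 0.00858) and Rhox6 by 2.51 (limma adjusted p = 0.0238), and the call of Rhox6 ended when GC and length trends were removed. Their higher level was not confined to day 6. At day 3 Rhox9 measured 26.8 and 41.4 FPKM in KO, against 4.50 and 4.23 FPKM in WT. Krt7, a keratin of simple epithelia and trophoblast singled out after its values were seen, measured 4.86 and 4.98 FPKM in KO against 1.18 and 0.986 FPKM in WT, and it rose by 1.51 (limma adjusted p = 0.00633), also with GC and length trends removed. None of these 3 calls passed without KO 2, that of Rhox9 also ended without KO 1, and that of Rhox6 without KO 1 or WT 2.

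**Figure D2:**
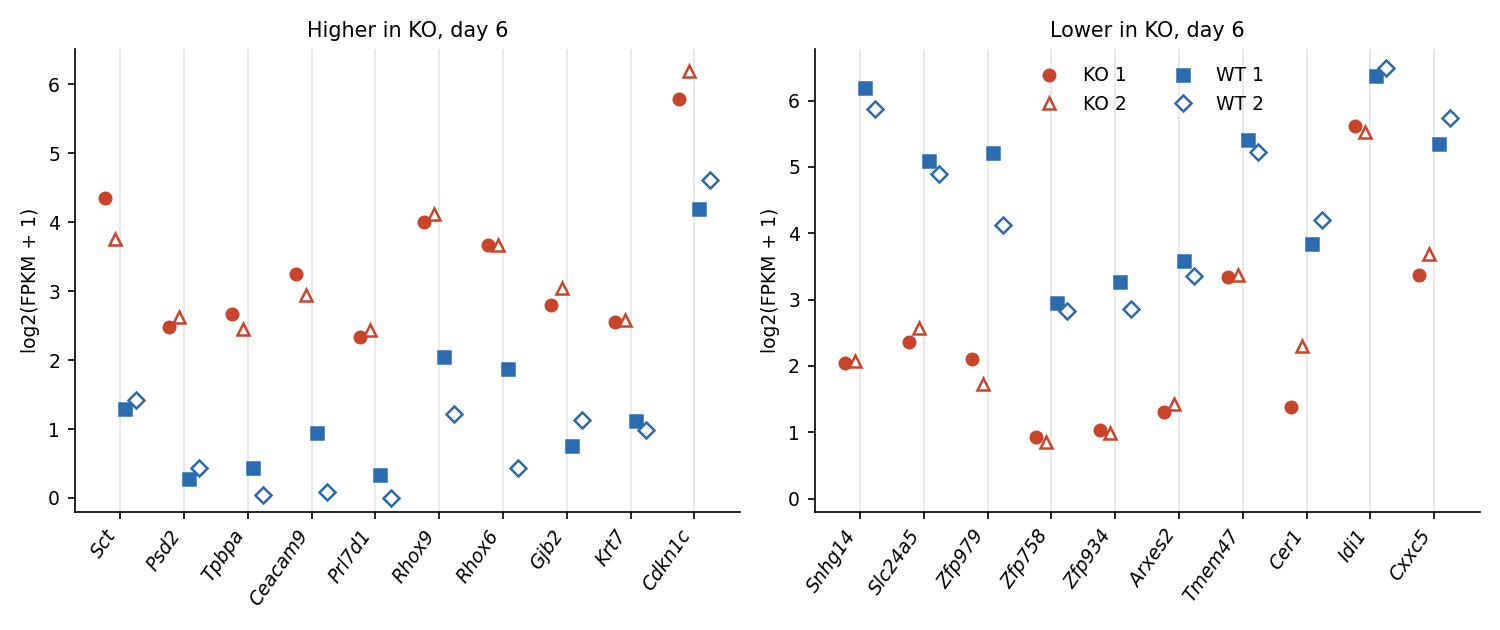
Level of 20 genes (y axis, log2(FPKM + 1)) in each day 6 library, genes higher in KO on the left and lower in KO on the right. In each of them both KO libraries lie on the same side of both WT libraries, and the gap between genotypes is wider than the distance between replicates.

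Snhg14 and Slc24a5 were among the genes that fell with a clear gap. Snhg14 (chromosome 7, 59272737 to 60450177), the long non-coding host transcript of the small nucleolar RNAs in the Prader-Willi region, measured 3.11 FPKM in KO 1 and 3.20 FPKM in KO 2, against 71.9 FPKM in WT 1 and 57.4 FPKM in WT 2. It fell by 3.97 on the log2 scale (SE 0.197, limma adjusted p = 2.26e-05). Slc24a5 (chromosome 2, 125068127 to 125088677), a sodium, potassium and calcium exchanger known from pigment cells, measured 4.13 and 4.96 FPKM in KO, against 32.9 and 28.8 FPKM in WT. It fell by 2.52 (SE 0.127, limma adjusted p = 2.26e-05). At day 3 the genotypes had been closer: Snhg14 measured 53.2 and 48.1 FPKM in KO, against 61.4 and 78.9 FPKM in WT. This smaller day 3 difference of Snhg14 did pass the threshold (log2 fold change -0.453, limma adjusted p = 0.0238). Slc24a5 then measured 41.0 and 39.7 FPKM in KO, against 43.2 and 45.9 FPKM in WT. Snhg14 runs antisense to Ube3a, and without a statement on strand its reads cannot be told apart from those of Ube3a where they overlap. Ube3a, named for that reason, measured 27.2 and 25.7 FPKM in KO, against 42.9 and 43.1 FPKM in WT. The calls of Snhg14 and Slc24a5 passed with any 1 library left out.

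Tmem47, a small membrane protein of cell junctions (chromosome X, 81070644 to 81097875), measured 9.13 and 9.30 FPKM in KO against 41.3 and 36.3 FPKM in WT, and fell by 1.96 (limma adjusted p = 2.86e-04). Arxes2, an X-linked gene known from adipocytes (135993820 to 135995359), measured 1.48 and 1.69 FPKM in KO against 10.9 and 9.28 FPKM in WT, and fell by 2.10 (limma adjusted p = 1.44e-04). Neither gene's libraries overlapped between genotypes at day 6, and both calls held with the day 6 libraries alone and with any 1 library left out. Tmsb15b2, a thymosin beta gene, also fell, by 2.44, a call that ended when GC and length trends were removed and without KO 1, KO 2 or WT 1.

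**Figure D3:**
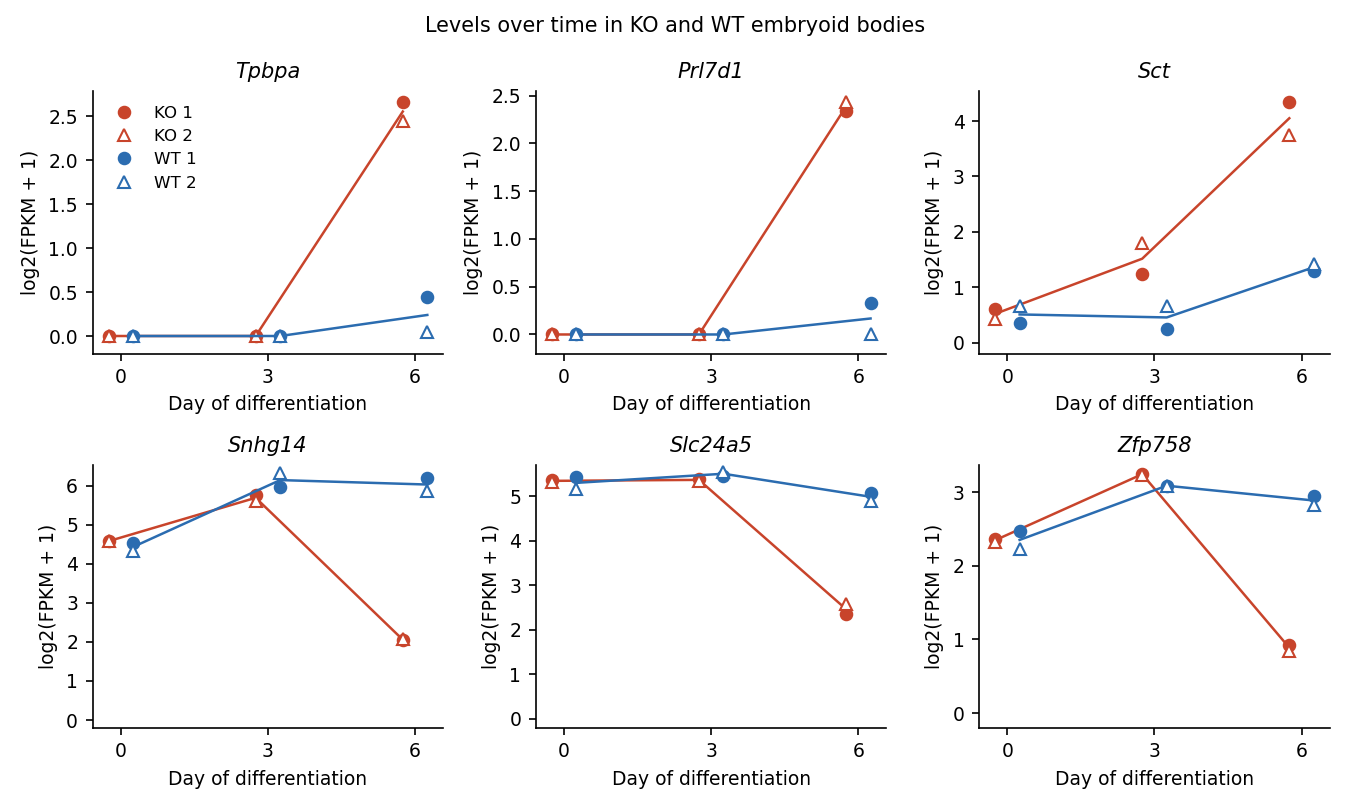
Level of 6 genes (y axis, log2(FPKM + 1)) at days 0, 3 and 6 (x axis) in each library, with lines through the genotype means. Tpbpa and Prl7d1 are at 0 until day 6, and Sct is higher in both KO libraries from day 3. Snhg14, Slc24a5 and Zfp758 are closer between genotypes at days 0 and 3 than at day 6, when they are lower in KO. The smaller day 3 difference of Snhg14 passed the threshold (limma adjusted p = 0.0238).

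Zinc finger genes made up 85 of the 1083 genes that fell. Of the 320 tested genes with a Zfp symbol, most of which encode DNA-binding transcription factors, 85 fell and 9 rose, a called share of 29.4% against 15.9% over all genes, and their median was -0.146 against 0.034. This family was chosen after its values were seen, its median transcript GC content of 46.5% is below the 51% of all genes, and 28 fell and 1 rose when GC and length trends were removed. With a library left out, 35 were lower and 2 higher without KO 1, 12 were lower and 0 higher without KO 2, 33 were lower and 0 higher without WT 1, and 80 and 8 without WT 2. Zfp758 measured 0.904 FPKM in KO 1 and 0.798 FPKM in KO 2, against 6.73 FPKM in WT 1 and 6.07 FPKM in WT 2, and fell by 2.00 (limma adjusted p = 7.13e-05). Zfp934 measured 1.04 and 0.991 FPKM in KO, against 8.62 and 6.23 FPKM in WT, and fell by 2.05 (limma adjusted p = 2.55e-04). The knockout libraries agree closely for both genes, and both calls passed with the day 6 libraries alone and with any 1 library left out.

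The zinc finger genes that fell were spread unevenly over the chromosomes. They made up 24 of 40 on chromosome 17, 15 of 29 on chromosome 13 and 10 of 21 on chromosome 4, but 7 of 80 on chromosome 7, where 3 rose. On chromosome 4, Zfp979 measured 3.28 and 2.32 FPKM in KO against 36.0 and 16.4 FPKM in WT (log2 fold change -2.75, limma adjusted p = 0.00105). Zfp987 measured 2.67 and 1.31 FPKM in KO against 37.2 and 11.2 FPKM in WT (log2 fold change -2.89, limma adjusted p = 0.00421). WT 2 lay between WT 1 and the knockout libraries in both. The call of Zfp987 ended without KO 2 (limma adjusted p = 0.0894), and that of Zfp979 did not. These clustered genes are near copies, among which reads may be split.

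Other genes rose without a clear gap, with WT 2 lying between WT 1 and the knockout libraries. Of the 15 lateral and cardiac mesoderm genes tested (of 22 listed), 10 rose and 1 fell, with a median of 1.41. Their called share was 73.3%, against 15.9% over all genes. Hand1, a factor of lateral mesoderm and trophoblast (chromosome 11, 57828713 to 57832147), measured 137 FPKM in KO 1 and 236 FPKM in KO 2, against 2.67 FPKM in WT 1 and 74.6 FPKM in WT 2. Foxf1, a factor of lateral plate mesoderm (chromosome 8, 121084386 to 121088154), measured 40.0 and 66.8 FPKM in KO, against 0.639 FPKM in WT 1 and 22.3 FPKM in WT 2. The genotypes did not overlap in either gene, yet the wild type cultures differed from one another by more than KO 1 differed from WT 2. Without WT 2 the mesoderm list had 12 genes higher and 1 lower, without KO 1 it had 2 and 1, without WT 1 it had 1 and 0, and without KO 2 it had 0 and 0. Hand1 rose by 3.44 (SE 0.989, limma adjusted p = 0.0464) and Foxf1 by 3.09 (SE 0.867, limma adjusted p = 0.0428). On a scale from WT 1 (0) to the knockout mean (1), WT 2 stood at 0.776 for Hand1 and 0.765 for Foxf1.

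Tbx20 and Hand2, both factors of the early heart, followed the same order. Tbx20 measured 29.2 and 46.1 FPKM in KO, against 1.27 and 13.7 FPKM in WT, and rose by 2.71 (limma adjusted p = 0.0257). Hand2 measured 19.5 and 30.7 FPKM in KO, against 0.681 and 9.74 FPKM in WT, and rose by 2.58 (limma adjusted p = 0.0265). The gene that fell was Actc1, a cardiac actin, at 2.10 and 0.773 FPKM in KO against 3.80 and 4.66 FPKM in WT. With GC and length trends removed 2 of the 10 calls that rose remained, with Hand1, Foxf1 and Hand2 among those that ended, and none of the 10 passed with the day 6 libraries alone or without KO 2.

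BMP signalling genes showed the same order. Of 18 tested (of 19 listed), 7 rose and 1 fell, with a median of 1.09 and a called share of 44.4% against 15.9% over all genes. The ligand gene Bmp4 measured 38.6 FPKM in KO 1 and 60.0 FPKM in KO 2, against 3.10 FPKM in WT 1 and 16.7 FPKM in WT 2, and rose by 2.53 (limma adjusted p = 0.0167). The target gene Msx1, a homeobox factor, measured 26.0 and 34.6 FPKM in KO against 2.34 and 9.70 FPKM in WT, and rose by 2.37 (limma adjusted p = 0.00963). Tbx2, another target, rose by 2.33 and Smad6, an inhibitor of the pathway, by 1.70. The secreted BMP antagonist Chrd fell, at 0.622 and 0.965 FPKM in KO against 2.05 and 2.42 FPKM in WT (log2 fold change -0.85, limma adjusted p = 0.0275). Bmp4, Msx1, Tbx2, Bambi and Chrd remained past the threshold with GC and length trends removed. Without KO 1 or KO 2 none of the list passed, without WT 1 2 genes were higher, and without WT 2 13 were.

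Of the 16 Wnt genes tested (of 19 listed), 8 rose (50%) and 0 fell, with a median of 0.795. The ligand genes Wnt5a and Wnt3 rose by 1.66 and 1.26, and the feedback targets Nkd1 and Sp5 by 1.19 and 1.17. Axin2, the usual reporter of the pathway, measured 31.6 and 30.5 FPKM in KO, against 10.4 FPKM in WT 1 and 22.5 FPKM in WT 2, and rose by 0.97 (limma adjusted p = 0.0482). The knockout libraries were close to one another and WT 1 stood apart. None of the 8 calls remained when GC and length trends were removed, or without KO 1, KO 2 or WT 1, and 11 genes of the list were higher without WT 2. Among 14 primitive streak genes tested (of 15 listed), Mesp1 and Wnt3 rose, a called share of 14.3% against 15.9% over all genes. Both calls ended with GC and length trends removed. In 11 of the 14 both knockout libraries were above both wild type libraries (78.6%, against 35.4% of all genes tested). The brachyury gene T measured 98.0 FPKM in KO 1 and 50.7 FPKM in KO 2, against 31.5 FPKM in WT 1 and 73.0 FPKM in WT 2, so that the genotypes overlapped. The streak list had 11 genes higher without WT 2 and 0 with any of the other libraries left out.

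Of the 15 trophoblast and simple keratin genes tested (of 17 listed), 10 rose and 0 fell, with a median of 1.51, the highest of the lists. Their called share was 66.7%, against 15.9% over all genes. Cdx2, the homeobox factor that starts the trophoblast programme and also patterns the posterior embryo, measured 10.2 FPKM in KO 1 and 18.9 FPKM in KO 2, against 0.944 FPKM in WT 1 and 4.44 FPKM in WT 2. It rose by 2.20 (limma adjusted p = 0.0139). Krt18, a keratin of simple epithelia, measured 292 and 444 FPKM in KO against 73.2 and 169 FPKM in WT, and rose by 1.69 (limma adjusted p = 0.0197). Gata2 rose by 1.67. All 3 had WT 2 between WT 1 and the knockout, unlike Tpbpa, Prl7d1 and Krt7. Cdx2 and Krt7 were the calls of this list that remained without GC and length trends. Without KO 2 none passed, without WT 1 only 1 and without KO 1 only 2.

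Over the mesoderm, keratin, BMP and Wnt lists together, 34 of 63 genes rose, WT 2 was above WT 1 in 31 of these 34, and in 27 it lay nearer to the knockout mean than to WT 1. Over all 892 genes that rose, WT 2 was above WT 1 in 677 and nearer to the knockout mean in 137. Both quantities describe libraries and carry no test. Of these 63 genes 4 were higher without KO 1, 0 without KO 2, 4 without WT 1 and 46 without WT 2. Of 13 mesenchymal genes tested (of 16 listed), Fn1 and Twist2 rose, 15.4% against the 15.9% called over all genes. Fn1, fibronectin, measured 515 and 544 FPKM in KO against 98.8 and 322 FPKM in WT, and rose by 1.56 (limma adjusted p = 0.0334), a call that ended without KO 1, KO 2 or WT 1 and with GC and length trends removed. Of 16 collagen, laminin and basement membrane genes tested (of 18 listed), 6 rose and 0 fell, with Lama4 at 1.64 and Col4a2 at 1.18, and none of these calls remained without GC and length trends, without KO 2 or without WT 1. The 12 listed markers of feeder fibroblasts, cells on which the stem cells are grown, summed to 48.8 and 77.0 FPKM in KO. In WT they summed to 26.4 and 44.8 FPKM. Of the 7 tested, Twist2 rose, a call that ended in the same fits as that of Fn1. The other 5 markers, included in these sums, were under the minimum. Among these, Postn (0.394 and 1.69 FPKM in KO, 0.106 and 0.364 FPKM in WT) and Col3a1 (0.59 and 1.18 FPKM in KO, 0.252 and 0.255 FPKM in WT) were higher in both knockout libraries, and Dcn (0.327 and 0.12 FPKM in KO, 1.43 and 0.372 FPKM in WT) was lower. Loxl1 measured 0.767 and 1.52 FPKM in KO against 0.762 and 0.743 FPKM in WT, and Lum 0.0528 and 0.0692 FPKM in KO against 0.0185 and 0.0355 FPKM in WT. The part of such cells in the results was not tested.

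**Figure D4:**
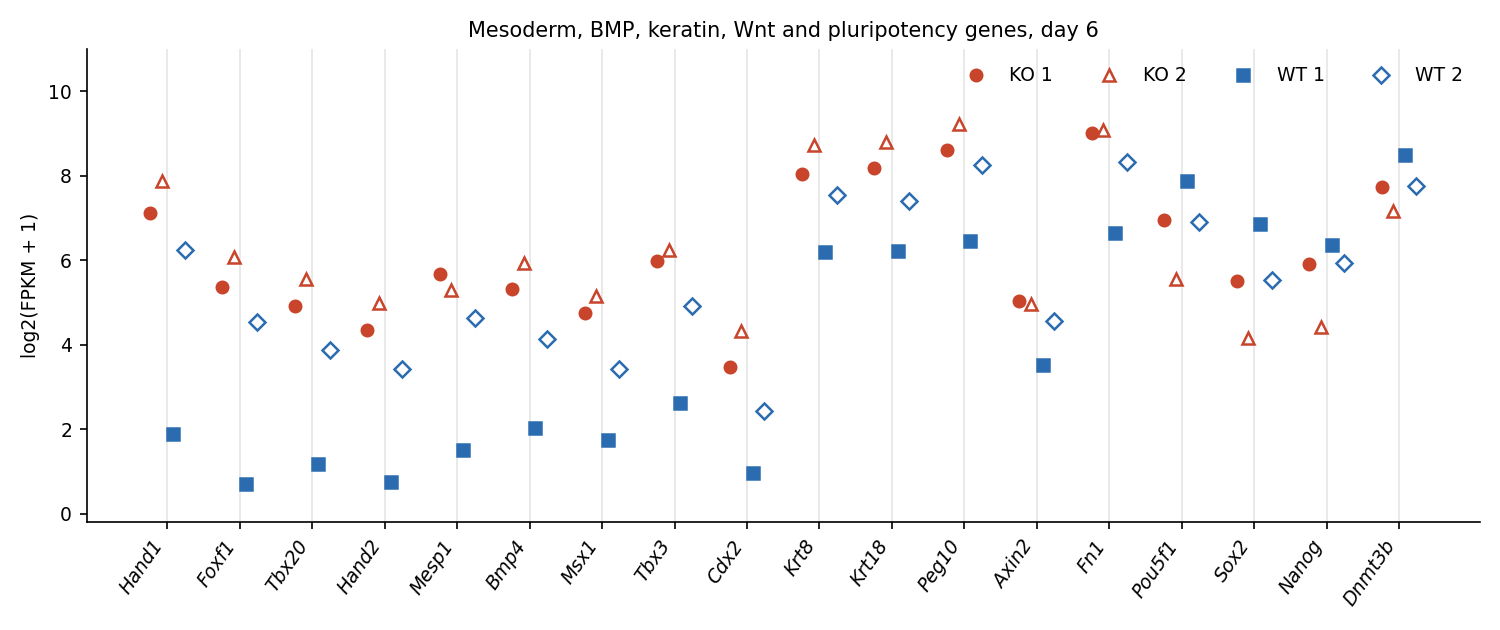
Level of 18 genes (y axis, log2(FPKM + 1)) in each day 6 library. From Hand1 to Fn1, WT 2 (open diamonds) lies between WT 1 (filled squares) and both KO libraries. In Pou5f1, Sox2, Nanog and Dnmt3b the genotype differences did not pass the threshold and KO 2 is the lowest library.

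Most pluripotency genes overlapped between genotypes. Of 28 naive and general pluripotency factors, 1 rose and 2 fell. The genotypes overlapped in 19 of them, a larger share than the 4445 of the 12436 genes tested. Both knockout libraries were above both wild type libraries in 17.9% of these factors and below them in 14.3%. Over all genes tested these shares were 35.4% and 28.8%. The called shares over all genes were 7.17% higher and 8.71% lower. With a library left out, 4 of the factors were lower without KO 1, 0 were called without KO 2, 1 was higher without WT 1, and 1 was higher and 8 were lower without WT 2. WT 2 was below WT 1 in 25 of the 28. Pou5f1, the core factor OCT4, measured 123 FPKM in KO 1 and 46.1 FPKM in KO 2, against 234 FPKM in WT 1 and 118 FPKM in WT 2. Sox2 measured 44.4 and 17.0 FPKM in KO against 116 and 45.4 FPKM in WT, and Nanog 59.6 and 20.4 FPKM in KO against 81.9 and 60.7 FPKM in WT. In all 3 KO 2 was the lowest library and WT 1 the highest, while KO 1 and WT 2 were close. The limma adjusted p was 0.105 for Pou5f1, 0.0732 for Sox2 and 0.131 for Nanog, with log2 fold changes of -1.13, -1.36 and -0.99.

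The pluripotency genes that fell were the RNA-binding regulators of let-7, Lin28a (log2 fold change -0.31, limma adjusted p = 0.0401) and Lin28b (-0.76, limma adjusted p = 0.00659). Lin28b measured 20.3 and 17.4 FPKM in KO against 35.2 and 30.3 FPKM in WT, and this call ended when GC and length trends were removed. Tbx3, which is also a BMP-responsive mesoderm factor, rose by 2.35, with 62.6 and 75.2 FPKM in KO against 5.13 FPKM in WT 1 and 29.3 FPKM in WT 2. The call of Tbx3 likewise ended with the trends removed, and that of Lin28a did not. Of these 3 calls only Lin28b passed without KO 1, none without KO 2, only Tbx3 without WT 1, and all but Lin28a without WT 2.

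Of the 15 genes of DNA methylation and demethylation, 1 rose and 0 fell, 6.67% against the 15.9% called over all genes. Without WT 2, 3 were lower and 0 higher, and with any other library left out none passed. The 5-methylcytosine dioxygenase Tet1 measured 19.7 and 15.6 FPKM in KO, against 28.8 and 21.7 FPKM in WT, below both wild type libraries but short of the threshold (log2 fold change -0.49, limma adjusted p = 0.0791). Tet2 measured 7.61 and 7.48 FPKM in KO, against 6.20 and 5.92 FPKM in WT (limma adjusted p = 0.231). Tet3 measured 9.47 and 12.2 FPKM in KO, against 8.29 and 8.30 FPKM in WT (limma adjusted p = 0.169). The sign of the difference was thus negative for Tet1 and positive for the other dioxygenases, none past the threshold.

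Among methyltransferases, Dnmt3b measured 211 and 142 FPKM in KO, against 361 and 216 FPKM in WT (limma adjusted p = 0.110), and Dnmt3a 18.1 and 13.8 FPKM in KO, against 29.2 and 18.8 FPKM in WT (limma adjusted p = 0.115). Dnmt3l, their cofactor, overlapped between genotypes, at 7.94 and 4.79 FPKM in KO against 13.5 and 3.46 FPKM in WT. The maintenance enzyme Dnmt1 rose by 0.31 (limma adjusted p = 0.0362), as did Kmt2b by 0.35 and Fbxl19 by 0.38, all of which carry a CXXC finger like CXXC5. In the CXXC list the called share was 27.3%, against 15.9% over all genes. These 3 calls, of 11 CXXC genes tested, ended when GC and length trends were removed, and with KO 1, KO 2, WT 1 or WT 2 left out.

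Of 17 neural genes tested (of 24 listed), 4 fell and 0 rose, with a median of -0.958. Their called share was 23.5%, against 15.9% over all genes. Fabp7, a fatty acid binding protein of radial glia, measured 4.53 FPKM in KO 1 and 2.14 FPKM in KO 2, against 16.1 FPKM in WT 1 and 12.3 FPKM in WT 2, and fell by 1.85 (limma adjusted p = 0.0161). Map2, a microtubule protein of neurons, measured 0.949 and 0.531 FPKM in KO, against 3.45 and 2.39 FPKM in WT, and fell by 1.17 (limma adjusted p = 0.00955). Zic1 fell by 1.24 and Stmn2, which regulates neuronal microtubules, by 0.74. The libraries of these genes did not overlap between genotypes. Pax6 measured 2.27 and 0.593 FPKM in KO, against 5.85 and 2.59 FPKM in WT, and did not pass (limma adjusted p = 0.0922). With GC and length trends removed Map2 and Zic1 remained past the threshold, and Fabp7 and Stmn2 did not. Of the neural list 0 genes were lower without KO 2 or WT 1, 5 without KO 1 and 10 without WT 2.

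Of 15 Nodal pathway genes tested, 1 rose and 2 fell, a called share of 20% against 15.9% over all genes. Cer1, a secreted inhibitor of Nodal, BMP and Wnt made by anterior endoderm, measured 1.60 FPKM in KO 1 and 3.91 FPKM in KO 2, against 13.2 FPKM in WT 1 and 17.4 FPKM in WT 2. It fell by 2.18 (SE 0.290, limma adjusted p = 0.00324). Foxh1, the DNA-binding partner of the pathway's SMADs, measured 105 and 124 FPKM in KO, against 42.9 and 66.0 FPKM in WT, and rose by 1.09 (limma adjusted p = 0.00886). The receptor gene Acvr2a fell by 0.40, a call that ended without GC and length trends and with any 1 library left out. The call of Cer1 passed in each of those fits, and that of Foxh1 ended without KO 2 (limma adjusted p = 0.148) and without WT 1 (0.0511). The ligand gene Nodal overlapped, at 19.2 and 13.5 FPKM in KO against 19.5 and 12.1 FPKM in WT.

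Endoderm, endothelium and the remaining pathways gave fewer calls. Of 17 endoderm genes tested (of 21 listed) 3 rose and 0 fell, a called share of 17.6% against 15.9% over all genes. Apoe, an apolipoprotein abundant in visceral endoderm, measured 538 and 740 FPKM in KO, against 226 and 282 FPKM in WT, and rose by 1.32 (limma adjusted p = 0.00574). Gata4 and Gata6, shared with the mesoderm list, rose by 1.70 and 1.40. Of 21 blood and endothelium genes tested (of 26 listed), Cdh5, the endothelial cadherin, and Gata2 rose, a called share of 9.52%. Cdh5 rose by 1.95 with 8.16 and 11.4 FPKM in KO against 0.952 and 2.92 FPKM in WT. The Cdx and Hox list had 3 of 8 tested genes rising (37.5%), among them Hoxd9 at 0.97 and Cdx2, and 20 genes listed. Apoe and Cdh5 remained past the threshold with GC and length trends removed, as did Cdx2, and Gata4, Gata6, Gata2 and Hoxd9 did not. None of the 3 lists had a call without KO 2. The endoderm, blood and Hox lists had 1, 1 and 3 genes higher without KO 1, 1, 1 and 0 without WT 1, and 4, 7 and 7 without WT 2.

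For Notch, Hedgehog and YAP lists 1 gene each rose: Notch3 by 0.63, the co-receptor gene Boc by 0.75 and Tead4, a factor of trophectoderm, by 1.40. With 13, 9 and 12 genes tested, the called shares were 7.69%, 11.1% and 8.33%, all under the 15.9% over all genes. In the FGF list 2 of 19 rose, the receptor genes Fgfr1 by 0.65 and Fgfr2 by 1.08. No gene of the retinoic acid, paraxial mesoderm or glycolysis lists passed, nor any of the 3 tested germline genes known to be silenced by DNA methylation (of 15 listed). In the retinoic acid list (9 tested) the median was 0.140, and over 17 glycolysis genes it was 0.182. Of 12 germ cell factors Rhox6 and Rhox9 rose, a called share of 16.7%, near that over all genes. Of 8 neural crest and surface ectoderm genes tested (of 16 listed) Msx1 rose, a share of 12.5%. Of 6 tested genes chosen as signs of RNA quality or handling, such as Fos, 0 passed. Together with Hspa1a, which was under the minimum, they summed to 900 and 983 FPKM in KO against 1043 and 1169 FPKM in WT. Of 16 epithelial junction genes Dsp and Cldn4 rose, by 1.31 and 0.85, a called share of 12.5% with a list median of 0.071. Of 14 actomyosin genes tested (of 16 listed) Myh9 and Actn1 rose, by 0.68 and 0.46, a called share of 14.3%. Both shares were under the 15.9% over all genes. With GC and length trends removed Dsp, Rhox9 and Msx1 remained past the threshold, and the other calls given here ended. Of the genes named here as rising, none passed without KO 2, Fgfr1 and Fgfr2 passed without KO 1, Rhox6, Rhox9 and Msx1 without WT 1, and all but Rhox6 without WT 2.

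**Figure D5:**
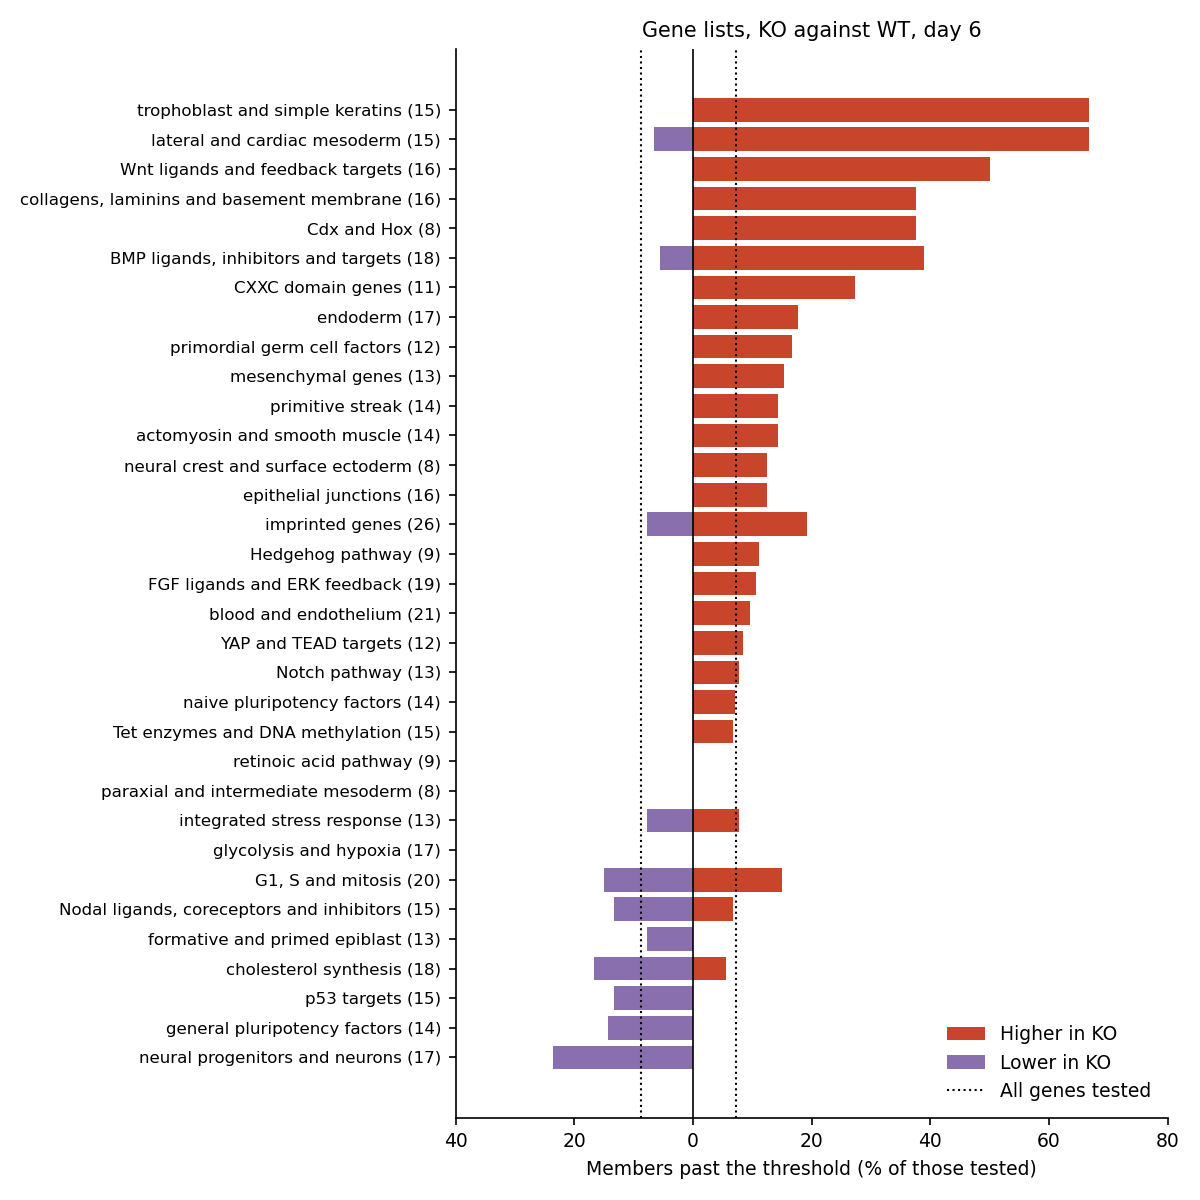
Share of tested members past the threshold in the gene lists with at least 8 tested members (x axis, percent), higher in KO to the right and lower in KO to the left, with the number tested in brackets and dotted lines at the shares over all genes (7.17% and 8.71%). The trophoblast, mesoderm and Wnt lists extend farthest to the right, and the neural list farthest to the left.

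Cell cycle, metabolic and imprinted genes changed in both directions. Cdkn1c, an imprinted inhibitor of cyclin-dependent kinases (chromosome 7), measured 54.4 FPKM in KO 1 and 72.3 FPKM in KO 2, against 17.2 FPKM in WT 1 and 23.3 FPKM in WT 2, and rose by 1.60 (SE 0.233, limma adjusted p = 0.00459). Phlda2, which lies in the same imprinted domain, measured 113 and 159 FPKM in KO, against 16.3 and 67.7 FPKM in WT, and rose by 1.97 (limma adjusted p = 0.0260). Of 26 imprinted genes tested (of 27 listed) 5 rose and 2 fell, with a median of 0.414. Their called share was 26.9%, against 15.9% over all genes. Peg10, a retrotransposon-derived gene needed in the placenta, measured 388 and 601 FPKM in KO, against 86.2 and 304 FPKM in WT, and rose by 1.57 (limma adjusted p = 0.0457). WT 2 was between WT 1 and the knockout in Phlda2 and Peg10, and close to WT 1 in Cdkn1c. The calls of Phlda2 and Peg10 ended with GC and length trends removed, and that of Cdkn1c did not. Of the imprinted genes 3 were higher and 1 lower without KO 1, 1 and 0 without WT 1, and 9 and 3 without WT 2. Without KO 2 none passed, and the limma adjusted p of Cdkn1c was then 0.102.

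In the cell cycle list 3 of 20 rose and 3 fell, a called share of 30% against 15.9% over all genes. Ccnb1, the mitotic cyclin, measured 82.4 and 76.7 FPKM in KO, against 132 and 113 FPKM in WT, and fell by 0.61 (limma adjusted p = 0.00614), whereas the G1 cyclin genes Ccnd1 and Ccnd3 rose by 0.56 and 0.67. Of 18 cholesterol synthesis genes 1 rose and 3 fell, a called share of 22.2%. Idi1, an isomerase of that pathway, measured 48.1 and 44.9 FPKM in KO, against 81.5 and 89.0 FPKM in WT, and fell by 0.86 (SE 0.093, limma adjusted p = 0.00150) under the fits without GC and length trends and on the day 6 libraries alone as well. Of 15 p53 targets 0 rose and 2 fell, Trp53inp1 by 0.94 and Eda2r by 0.88, a called share of 13.3%, under that over all genes. The median of these targets was 0.113, with 9 above 0 and 6 below. Of 13 integrated stress response genes tested (of 14 listed), 1 rose and 1 fell, a called share of 15.4%. Shmt2, a mitochondrial enzyme of serine metabolism, rose by 0.60 and Chac1 fell by 0.49. With GC and length trends removed the calls of Ccnb1, Ccnd1, Ccnd3, Trp53inp1 and Shmt2 ended, and those of Eda2r and Chac1 did not. Idi1 and Trp53inp1 passed with any 1 library left out. Of the other genes given here none passed without KO 2, and Ccnd1, Ccnd3, Shmt2 and Chac1 also ended without KO 1 or WT 1.

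Y-linked genes differed between the lines of the genotypes. Eif2s3y, a translation initiation factor subunit, measured 2.48 FPKM in KO 1 and 1.40 FPKM in KO 2, against 12.1 FPKM in WT 1 and 20.4 FPKM in WT 2, and fell by 2.53 (limma adjusted p = 0.0137). Uty, a Y-linked histone demethylase homologue, measured 1.02 and 0.488 FPKM in KO against 4.27 and 6.45 FPKM in WT, and fell by 1.85 (limma adjusted p = 0.0173). Ddx3y measured 0.772 and 0.591 FPKM in KO against 2.51 and 4.01 FPKM in WT, short of the threshold (limma adjusted p = 0.0606). The difference was there before differentiation, with Eif2s3y at 3.92 and 2.51 FPKM in KO against 11.2 and 14.5 FPKM in WT at day 0. Both calls ended when GC and length trends were removed and without KO 1 or KO 2, that of Uty also without WT 1 or WT 2, and the part of this difference between lines in the other results was not tested. Xist was under the minimum, at 0.452 and 0.363 FPKM in KO against 0.592 and 0.318 FPKM in WT.

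The day 6 difference was also compared with that at day 3. The difference itself changed between the days in 398 genes (3.2%) by limma's interaction contrast at the same threshold, 109 towards higher and 289 towards lower levels in the knockout, and 370 of the 398 were among the day 6 calls. At day 3, 1393 of the same genes (11.2%) passed, and 409 passed on both days in the same direction, which is 20.7% of the day 6 calls and 29.4% of the day 3 calls. Another 10 passed in opposite directions. With a library left out, the 398 became 91 without KO 1, 50 without KO 2, 80 without WT 1 and 1126 without WT 2. Both days come from the same cell lines, but the contrast took their libraries as independent. Snhg14 had an interaction of -3.52, Slc24a5 of -2.39, Tpbpa of 2.32 and Prl7d1 of 2.22 on the log2 scale.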

How the data were processed

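Per the labels' protocols, total RNA of the embryoid bodies was sequenced as single-end reads of 75 bases. Trimming used Trim Galore 0.4.1, and TopHat2 2.0.13 did the mapping to mm10. The authors deposited FPKM values, and the submitters' processing notes list Cufflinks 2.2.1, Cuffdiff and HTSeq 0.6.1 without saying which of them made the values. For annotation and strand use the sources used here give nothing. The deposited table held 24550 rows, of which 92 were ERCC spike-ins listed at 0 and left out. Depth was estimated from the value of 1 read in genes with few reads, where 73.5% to 75.6% of values lay within 3% of whole reads.

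Values were compared as log2(FPKM + 1) with limma 3.58.1 in R 4.3.3, on 12 libraries with a mean per genotype and day. An equal variance for all libraries would understate the spread of day 6, so a variance factor was estimated for each genotype and day (weights 0.539 for KO and 0.385 for WT at day 6, against 0.628 to 2.583 at the other days), and variances were moderated with a trend. The test was checked on simulated data drawn with independent normal errors from its own fitted variances. Such data hold no GC trend and no correlation between libraries of a line, so the check does not cover these. The stem cell table was not used. Trends on GC content and length were removed with splines of 5 degrees of freedom, from transcripts matched by symbol or synonym for 24365 of 24458 genes. The other settings tried are in the closing section. Genes named are Cxxc5, the 12 higher and 12 lower called genes with the largest gap between genotypes, the 6 and 6 with the largest change, up to 4 per list, pluripotency, Tet and Dnmt genes (those not given singly are in the counts) and Y-linked genes, and others are marked as chosen after their values were seen. Some genes that the rule covers are not reported here. Members, lists and tests were chosen with earlier results of these data known. Gene positions and promoter sequences are from RefSeq for GRCm38.p6.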

Additional observations from a re-analysis of the deposited data

Results flagged for a closer look

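The difference between knockout and wild type at day 6 departed from that at day 3 by limma's interaction contrast in 398 genes (3.2% of those tested, adjusted p under 0.05), which is what brings the following genes here. The value given for each is the day 6 log2 difference minus the day 3 log2 difference. Among genes with a positive value, Ceacam9 stood at 2.58, Tpbpa at 2.32, Prl7d1 at 2.22, Gjb2 at 1.93 and Psd2 at 1.79. Gjb2 measured 0.268 and 0.264 FPKM in KO against 0.227 and 0.218 FPKM in WT at day 3, before the separation seen at day 6. Among genes with a negative value, Snhg14 stood at -3.52, Slc24a5 at -2.39, Arxes2 at -1.98 and Tmem47 at -1.85. The zinc finger genes Zfp979, Zfp987, Zfp758 and Zfp934 stood at -2.34, -2.24, -2.15 and -1.85. At day 3, where neither difference passed the threshold, Zfp987 measured 54.0 and 54.1 FPKM in KO against 81.8 and 88.8 FPKM in WT (limma adjusted p = 0.0792), and Zfp758 measured 8.52 and 8.41 FPKM in KO against 7.50 and 7.49 FPKM in WT (limma adjusted p = 0.130). Among these genes the departure passed with any 1 library left out, with limma, except for Gjb2 and Zfp979, which missed without KO 2 (adjusted p = 0.0697 and 0.122), and Zfp987, which missed without KO 1, KO 2 or WT 1 (0.0947, 0.336 and 0.0775).

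Genes for small RNAs were also among them. Scarna17 stood at 6.36, Mir450b at 5.02, Mir7034 at 4.42 and Mir6236 at 3.89, and each was listed at 0 in both wild type libraries at day 6, so no fold is given. Snord8 stood at -8.23 and Mir432 at -4.37, and both were listed at 0 in the knockout libraries at day 6. At day 3 Snord8 had the opposite order, with 23.6 and 9.96 FPKM in KO and a listed 0 in WT. Its value thus joins a day 3 difference of 4.036 and a day 6 difference of -4.195. Mir432 measured 30.0 and 50.7 FPKM in KO at day 3, against 107.8 and 274.5 FPKM in WT. For Mir432 the departure missed the threshold with any 1 library left out, and for Snord8 it passed each time. Scarna17, Mir450b, Mir7034 and Mir6236 were also listed at 0 in every library of days 0 and 3. With 1 knockout library left out no spread remained in their values, so that passing then says nothing about how firm they are. These genes are 62 to 123 bases long, about as short as a read of 75 bases, and their FPKM rest on few reads. Scarna17 measured 116 FPKM in KO 1 and 56.8 FPKM in KO 2, and Mir432 measured 63.4 FPKM in WT 1 and 122 FPKM in WT 2. Mir374b, which also fell (limma adjusted p = 0.0463), was listed at 0 in both knockout libraries and measured 14.3 FPKM in WT 1 and 13.8 FPKM in WT 2. Its call ended with GC and length trends removed (limma adjusted p = 0.145) and with any 1 library left out. Its departure from day 3 did not pass the threshold (limma adjusted p = 0.115).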

How the results depend on the processing

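The number of genes called depended mainly on how the spread was estimated, on the GC trend and on single libraries. The 1975 calls became 4395 with equal weights (2353 higher, 2042 lower), 115 with the 4 day 6 libraries alone (20 higher, 95 lower), 469 with GC content and length trends removed (194 higher, 275 lower) and 16 with the day 6 libraries alone and these trends removed (7 higher, 9 lower), a setting chosen after seeing the data. Leaving out a library gave 114 to 2283 calls, 27 to 1088 higher and 87 to 1195 lower. The counts were 629 without KO 1, 114 without KO 2, 404 without WT 1 and 2283 without WT 2. Other pseudocounts (0.1, 0.5), no minimum or a minimum of 5 FPKM, quantile normalization and median ratio scaling gave 1823 to 2037 calls. The 398 genes whose difference departed from day 3 were 93 with GC and length trends removed and 50 to 1126 with a library left out (91 without KO 1, 50 without KO 2, 80 without WT 1 and 1126 without WT 2). Of 97 called genes named in the text beside Cxxc5, 49 passed with GC and length trends removed and 26 with the day 6 libraries alone, 75 to 97 under other pseudocounts, no minimum or another scaling, and 75 of the 76 tested at a minimum of 5 FPKM. None of the 97 changed sign. The cause of these differences between settings was not tested.

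The log2 fold change of Cxxc5 was -2.27 with GC and length trends removed on the day 6 libraries alone, where it missed the threshold (limma adjusted p = 0.0665), and -2.20 to -1.82 with a library left out. Among genes that did not pass, the log2 difference of Nodal was -0.122 with GC and length trends removed, on 12 libraries and on the day 6 libraries alone. With a library left out it ran from -0.257 to 0.387 for Nodal, from -1.01 to 0.691 for Dnmt3l and from -0.05 to 1.137 for T. With the replicate number as a replicate block, 1885 genes passed, 326 for the departure from day 3, and 83 of the 97. Replicate numbers name independent lines, and same-numbered libraries deviated together with a correlation of 0.244, so the numbers are not taken as pairs.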

Other observations

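Called genes were unevenly spread over the chromosomes. On the X chromosome 34 of 444 tested genes rose and 83 fell, a called share of 26.4% against 15.9% over all genes, with a median log2 difference of -0.083, whereas at day 0 the median of these genes was 0.014. On chromosome 8, 98 of 716 genes rose and 45 fell, and on chromosome 14, 14 of 437 rose and 30 fell. Without KO 2, 1 gene of the X chromosome was higher and 8 were lower, and with GC and length trends removed 12 were higher and 22 lower. On chromosome 8 these counts were 1 and 4 without KO 2 and 11 and 13 with the trends removed, and on chromosome 14 they were 1 and 0 and 5 and 9. The shares by chromosome were looked at after the values were seen and carry no test.

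Outside the lists, some genes passed in the fit on 12 libraries, in that without GC and length trends, and in that on the day 6 libraries alone. These 3 fits shared 78 genes (0.627%), 14 higher and 64 lower. Chosen from these after their values were seen, Hnrnpa1 and Hnrnpa3, which bind RNA and regulate splicing, fell by 1.35 and 1.45 on the log2 scale, Xpo1, the nuclear export receptor, by 1.18, and Ppp1cb, a catalytic phosphatase subunit, by 1.21. Hnrnpa1 overlaps in sequence with many pseudogene copies, which could take part of its reads. Nrk, a kinase of the placental spongiotrophoblast, rose by 1.41, with 7.93 and 9.34 FPKM in KO against 2.63 and 2.63 FPKM in WT, and Vax1, a homeobox factor of the ventral forebrain and eye, rose by 1.22, with 5.32 and 5.21 FPKM in KO against 1.73 and 1.65 FPKM in WT. With any 1 library left out these calls passed, except that of Nrk without KO 2 (limma adjusted p = 0.0529).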
